A study of Mus musculus with 20 samples.

Results

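The comparison set lungs of mice that received both a flaxseed diet and thoracic radiation against lungs of untreated mice, to find how far apart they lay. Arrays were chosen by the treatment in their labels, which gave 5 arrays with both treatments and 5 untreated arrays, 10 of the 20 arrays in the series. All mice were C57BL/6, an inbred laboratory strain, and the tissue was lung, with total RNA of 1 mouse per array. Mice of the combined group ate a diet with 10% flaxseed over 21 days, then received 13.5 Gy to the chest, and were killed 48 hours after the radiation. This group is called combined below, with replicates 1 to 5. Untreated mice had neither. The other groups, with 5 mice each, had either flaxseed or radiation alone at the same diet content and dose. The labels state neither the sex nor the age of the mice, nor what the ordinary diet held.

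Radiation of the chest breaks DNA in every lung cell type and is known to be followed, over weeks to months, by inflammation of the air sacs and then by scarring, to which C57BL/6 mice are prone. Flaxseed, the seed of the linseed plant, is rich in alpha-linolenic acid, an omega-3 fatty acid, and in lignans, plant phenols with antioxidant activity. The diet has been studied as a way to limit lung damage by radiation. A time of 48 hours lies before the inflammatory phase that such damage is known for.

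Each array carried 9600 spots, and the values are intensities. The tables used here do not pair spots with genes, so spots are given by number, the number is no gene identifier, and the label lung was not checked against marker genes. In lung tissue, fewer cells of a type and less RNA per cell cannot be told apart. Over the 10 arrays compared, median signal per array lay between 94.7 and 114 scanner units. Median signal over local background was 5.84 ± 0.56 (SD, n = 5) with both treatments and 5.56 ± 0.655 (SD, n = 5) in untreated lungs. Values below are log2 intensities after background correction and quantile normalization, which gives all arrays the same distribution.

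The distance between lungs given both treatments and untreated lungs was small on the log2 scale. Over the 9600 spots, the group means differed by a root mean square of 0.125 on the log2 scale, after the part due to spread within groups was removed. As a mean square this was 0.0155, and 2 of the 126 ways of splitting the 10 arrays into 5 and 5, the true one included, gave as much (one-sided exact permutation p = 0.0159, adjusted over 3 distance tests 0.0238). The adjusted p rose to 0.0714 without replicate 1, 3, 4 or 5 of the combined group, where the mean square was 0.0134 to 0.0157. With the authors' deposited table as the source of values it was 0.0248 (one-sided exact permutation p = 0.0952), which did not pass.

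Distances between single arrays hold the spread of both arrays and cannot be set directly against the distance between group means with spread removed. Without that removal the group means differed by a root mean square of 0.211. Pairs of untreated arrays differed from each other by a root mean square of 0.333 to 0.383, with a median of 0.361 over 10 pairs. Pairs of 1 array with both treatments and 1 untreated array differed by 0.356 to 0.461, with a median of 0.388 over 25 pairs. Arrays of the combined group differed among themselves by 0.355 to 0.467, with a median of 0.396 over 10 pairs. These ranges overlap for the most part, so that 1 array with both treatments differed from another by about as much as from an untreated array.

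By array, the mean distance to the 5 untreated arrays was 0.427 in replicate 1 of the combined group, 0.371 in replicate 2, 0.376 in replicate 3, 0.447 in replicate 4 and 0.378 in replicate 5. Each untreated array lay at a mean of 0.346 to 0.372 from the other untreated arrays. Replicate 2 fell inside that range, replicates 3 and 5 lay just above it, and replicates 1 and 4 stood farthest out. Rows of the spot numbering explained 19.7% of the variance of replicate 1's deviations from the mean of all arrays, and 2.03% to 5.26% in replicates 2 to 5.

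Distances of the single treatments from untreated share the same untreated arrays, and their differences were therefore tested directly. Flaxseed alone lay at a mean square of 0.0355 from untreated, farther than the combined group. The difference, combined minus flaxseed, was -0.01995, beyond every other assignment of these 10 treated arrays apart from its mirror image (two-sided exact permutation p = 0.00794, the smallest that these assignments can give; adjusted 0.0238). The untreated arrays stayed fixed in these assignments, so this p does not measure their spread. Without untreated replicate 1 or 4 the difference was -0.0113 and -0.0109 (exact permutation p = 0.00794 for both). Without each array of the combined group in turn it was -0.022 to -0.0159 and did not pass (exact permutation, adjusted p = 0.0714 to 0.167). Without combined replicate 2 the unadjusted exact permutation p was 0.111. Distances between single arrays, from which spread was not removed, gave no common order. Untreated replicates 2, 3 and 5 lay nearer on average to flaxseed arrays (0.384, 0.379 and 0.401) than to combined arrays (0.416, 0.394 and 0.415). Untreated replicates 1 and 4 lay farther from flaxseed arrays (0.435 and 0.444) than from combined arrays (0.384 and 0.392). Radiation alone lay at a mean square of 0.0181 from untreated. Its distance differed from that of the combined group by -0.00256 (combined minus radiation, two-sided exact permutation p = 0.683), which did not pass. The sign turned without radiation replicate 1 or combined replicate 2. Measured directly, the combined group lay at a mean square of 0.0857 from flaxseed alone. From radiation alone the value was -0.00182, negative because the spread removed exceeded the raw difference. Neither of these direct distances was tested.

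Single spots were then tested. In the limma model of all 20 arrays, 3 of 9600 spots passed at a Benjamini-Hochberg adjusted p under 0.05, which is 0.0312% of all spots, 1 higher (0.0104%) and 2 lower (0.0208%) with both treatments. At an unadjusted p under 0.05 there were 728 spots (7.58%), 383 higher (3.99%) and 345 lower (3.59%). The groups did not overlap in 118 spots (1.23%), 58 higher (0.604%) and 60 lower (0.625%). The middle 95% of log2 changes ran from -0.41 to 0.41, and for 9329 spots (97.2%) the 95% interval of the change lay within a 2-fold change either way. That share was 73.1% with background subtraction and 69.75% with the authors' deposited table, which carry no offset. The median interval reached 0.3 to either side.

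How many spots passed depended on single arrays. None passed in limma without untreated replicate 3 or combined replicate 5, where 661 and 751 spots had an unadjusted p under 0.05. Leaving out combined replicate 1 left 1 spot. The count was 7 without radiation replicate 4 and 10 without untreated replicate 4, and it rose to 27 without combined replicate 2, with 1 higher and 26 lower. A fit of the 10 arrays alone gave 0 spots in limma, with 700 at an unadjusted p under 0.05.

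Spot gene3410 was the spot that rose. In untreated arrays it stood at 6.43, 6.47, 6.35, 6.43 and 6.54 (log2, replicates 1 to 5), and with both treatments at 7.23, 6.85, 7.1, 6.9 and 7.24. The lowest array with both treatments lay above the highest untreated one. The log2 change of gene3410 was 0.62 ± 0.1 (SE; limma adjusted p = 0.0256), or 1.54-fold. It is a dim spot, with a median signal of 3.31 times background in untreated lungs and 5.51 times background with both treatments. In scanner units its signal ranged from 39 to 50.8 in untreated arrays and from 76.4 to 126 with both treatments, while local background ranged from 11.8 to 18.4 and from 16 to 19.8. Under other settings the log2 change ran from 0.46 to 1.34. With the means of spot rows, columns and blocks removed it was 0.46 and did not pass (limma adjusted p = 0.0815). Leaving out untreated replicate 1, 2 or 3 or combined replicate 1, 3 or 5 also ended the call (limma adjusted p = 0.0515 to 0.122). In the groups with a single treatment, gene3410 averaged 6.46 ± 0.13 with flaxseed and 6.98 ± 0.22 with radiation (SD, n = 5), so both irradiated groups were high and both unirradiated groups low.

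The second spot in that direction, gene2210, did not pass (limma adjusted p = 0.0883). Its values were 6.3, 6.25, 6.38, 6.32 and 6.3 in untreated arrays and 7.12, 6.79, 6.64, 6.62 and 6.54 with both treatments, a log2 difference of 0.43 ± 0.09 (SE). The groups did not overlap, and replicate 1 stood highest. This spot too was dim, at a median of 2.35 times background in untreated lungs. Without background correction the difference was 0.81, and with an offset of 10 in place of 50 it was 0.76, and both passed (limma adjusted p = 0.0255 and 0.0316). It passed under 5 of 10 other settings. Spots gene3410 and gene2210 share row 17 and column 10 of the spot number, in blocks 6 and 4. The 14 other spots at that row and column changed by -0.12 to 0.38 with a median of 0.09, and 10 of the 14 were higher. With row, column and block means removed, the difference of gene2210 was 0.32 (limma adjusted p = 0.132) and that of gene3410, given above, did not pass.

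Spot gene6121 fell. Its untreated values were 9.92, 10.65, 10.46, 10.52 and 10.09, and with both treatments 8.61, 8.96, 9.47, 8.7 and 8.76. All 5 arrays with both treatments lay below all untreated arrays, with replicate 3 nearest to them. The log2 change was -1.43 ± 0.23 (SE; limma adjusted p = 0.0256), or 2.69-fold lower. Signal for gene6121 ranged from 975 to 1670 scanner units in untreated lungs and from 384 to 773 with both treatments. Local background at the spot moved the same way, from 30.5 to 74.2 in untreated arrays and from 16.4 to 26.8 with both treatments. The spot directly above it in the numbering had a log2 change of -1.9, while the spot below had one of 0.2. A spread of signal between these spots was not tested. The call ended without untreated replicate 2 or 3 or combined replicate 1, 4 or 5 (limma adjusted p = 0.0525 to 0.122), with log2 changes of -1.57 to -1.35 over all arrays left out in turn.

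Spot gene7226 also fell, and had the smallest p of all spots. It stood at 8.12, 8, 8.4, 8.24 and 8.15 in untreated arrays and at 6.45, 7.57, 7.13, 7.17 and 7.02 with both treatments. The groups were apart, with replicate 1 of the combined group lowest and replicate 2 nearest to untreated. In scanner units, the signal of gene7226 ranged from 223 to 352 in untreated lungs and from 43.9 to 170 with both treatments. Local background ranged from 16 to 26.4 and from 8.55 to 20.4. Median signal over background was 11.7 in untreated lungs and 6.29 with both treatments. The log2 change of gene7226 was -1.12 ± 0.17 (SE; limma adjusted p = 0.0237), or 2.17-fold lower, and under 11 other settings it ran from -1.67 to -1.03. The call ended without untreated replicate 3 (adjusted p = 0.122) or combined replicate 5 (adjusted p = 0.0525 by limma), and in the fit of the 10 arrays alone (0.15).

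**Figure D1:**
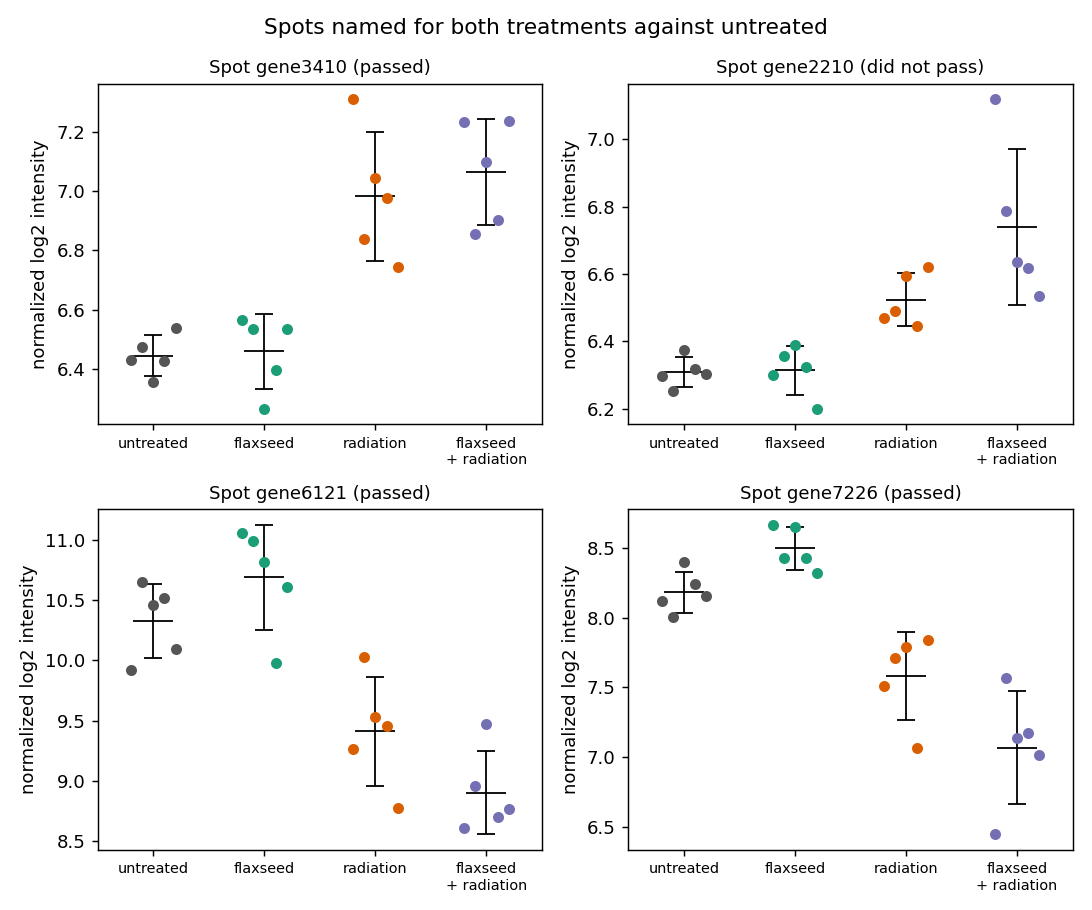
Normalized log2 intensity of 4 spots in every array, by group, with points in replicate order and black bars for mean and SD (n = 5 per group). With both treatments gene3410 ranges from 6.85 to 7.24 against 6.35 to 6.54 untreated, gene6121 from 8.61 to 9.47 against 9.92 to 10.65, and gene7226 from 6.45 to 7.57 against 8 to 8.4; gene2210 did not pass.

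Both spots that fell stood lower with both treatments than with radiation alone, without passing. Spot gene6121 averaged 8.9 ± 0.34 with both and 9.41 ± 0.45 with radiation (SD, n = 5), a difference of -0.51 with a 95% interval of -1 to -0.03 (limma adjusted p = 0.917). Spot gene7226 averaged 7.07 ± 0.41 and 7.58 ± 0.31, a difference of -0.52 with an interval of -0.87 to -0.16 (limma adjusted p = 0.783). The spots were picked for low values in the same combined arrays, and such a choice tends to lower both differences. The intervals make no allowance for it. With flaxseed alone these spots lay above their untreated means, at 10.69 ± 0.43 and 8.5 ± 0.15, without passing (limma adjusted p = 0.54 and 0.437). Set against the sum of the single changes, the combined change differed by -0.87 ± 0.33 for gene6121 and -0.83 ± 0.24 for gene7226 (log2, SE). This interaction did not pass for either (limma adjusted p = 0.378 and 0.268), and it rests partly on the arrays that picked the spots.

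Large changes went 1 way. With both treatments 35 spots (0.365% of 9600) were over 2-fold lower than untreated and 0 were over 2-fold higher. The largest fall was 5.27-fold and the largest rise 1.98-fold. All 35 had an unadjusted p under 0.05, where 3.59% of all spots did as lower, but 2 of them passed, gene6121 and gene7226. In 12 the groups did not overlap, where 0.625% of all spots were apart in that direction. These spots were chosen by this very difference, so its size and these counts in them are a description. They were bright: 31 lay among the brightest 1920 spots, and their median signal was 50.9 times background against 5.53 over all spots. The counts past 2-fold were 98 lower and 55 higher with plain background subtraction and 331 and 304 with the authors' deposited table, against 40 and 3 without background correction. Among the brightest 1920 spots each of these settings gave 32 lower and 0 higher.

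**Figure D2:**
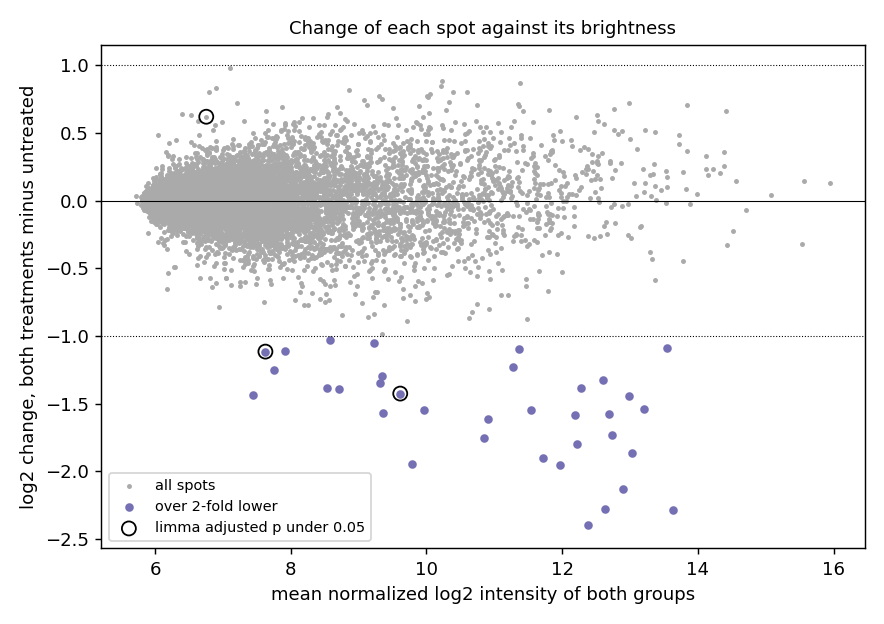
Log2 change of each of the 9600 spots, both treatments minus untreated, against the mean log2 intensity of the 2 groups; dotted lines mark a 2-fold change and rings the 3 spots that passed. The 35 spots over 2-fold lower reach a log2 change of -2.4 and lie mostly at high intensity, and no spot lies above the upper dotted line.

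The arrays of the combined group did not share the fall of these 35 spots equally. The mean of the 35 was 11.48, 11.58, 11.89, 11.5 and 11.99 in untreated arrays (log2, replicates 1 to 5). With both treatments it was 10.22, 11.19, 9.74, 9.36 and 10.16. Replicate 2 stood closest to untreated and far above the other 4 arrays of its group. In replicate 2 the median spot of the set lay -0.54 from its untreated mean, and 14 of the 35 were below every untreated array. In the other 4 arrays the median lay between -1.47 and -2.36, and 33 or 34 of the 35 were below every untreated array. The SD over arrays was accordingly 0.683 with both treatments and 0.237 in untreated lungs. Counts below every untreated array are favoured by the choice of these spots, and their share over all spots was not taken.

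Leaving out this 1 mouse changed how many spots passed. Without combined replicate 2, 26 spots passed as lower in limma, 22 of them among the 35. With all arrays, 16 spots were lower at an adjusted p under 0.1, 11 of them among the 35. Settings that weigh spread or dim spots differently also moved the count of lower calls: 22 with a trend and robust option (19 among the 35), 25 without the dimmest 33.3% of spots (24), 26 with an offset of 10 (23) and 31 without background correction (27). All these fits repeat the contrast that chose the 35, on largely the same arrays. The overlaps with the 35 are therefore built in for the most part. Higher calls were between 0 and 4 under every setting tried.

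**Figure D3:**
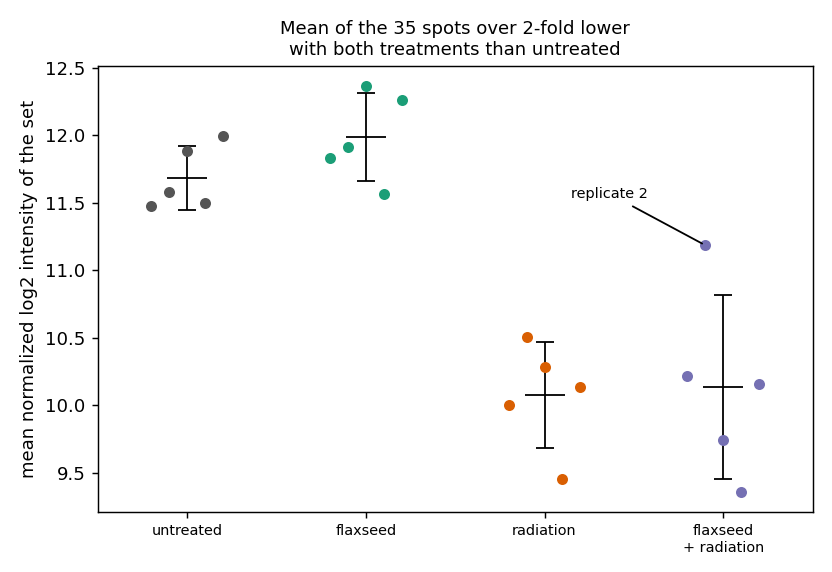
Mean normalized log2 intensity of the 35 spots over 2-fold lower with both treatments than untreated, in every array, with black bars for mean and SD (n = 5 per group). Combined replicate 2, at 11.19, lies between the other 4 arrays of its group (9.36 to 10.22) and the untreated arrays (11.48 to 11.99).

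Flaxseed and radiation arrays took no part in choosing the 35 spots and shared no array with the comparison. Between these groups 33 of the 35 passed as lower in limma with radiation alone than with flaxseed alone, where 2.67% of all spots and 8.96% of the brightest 1920 spots did. That model takes its spread from all 20 arrays. In a fit of the 10 radiation and flaxseed arrays alone 31 of the 35 passed as lower. In that fit 2.36% of all spots and 159 of the brightest 1920 did. The mean of the 35 was 10, 10.51, 10.28, 9.46 and 10.14 in radiation arrays and 11.84, 11.91, 12.37, 11.56 and 12.26 in flaxseed arrays. The levels with radiation (10.08 ± 0.39) and with both treatments (10.13 ± 0.68; SD, n = 5) were not tested against each other, and those with flaxseed (11.99 ± 0.33) and without treatment (11.69 ± 0.24) were both high. A set of 31 spots was lower by over 2-fold after radiation whether or not the mice ate flaxseed. Arrays of every group took part in choosing it, and 28 of its spots are among the 35, so its values are no further support. The set averaged 10.34 ± 0.77 with both treatments and 11.89 ± 0.23 untreated (SD, n = 5). Of the combined arrays, replicate 2 stood highest, at 11.52.

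Position in the spot numbering moved with the fall. Of the 35 spots, 13 (37.1%) had column 16 of the 25 columns, which holds 4% of all spots, although they spread over 17 rows and 12 blocks. That the numbers follow the printed layout is an assumption. Column 16 had the lowest mean change of the 25 columns, at -0.0863. Mean changes by row, column or block all lay between -0.0894 and 0.103. With row, column and block means removed, 31 of the 35 were over 2-fold lower. Means this small could change that count little, so the removal does not address the share in column 16. Of the 22 outside column 16, 20 also passed as lower between radiation and flaxseed arrays, and all 13 inside it did. Over all spots, the row accounted for 6.74% of the variance of the change, the column for 2.31% and the block for 1.43%. Their part in the calls, other than in the values given, was not tested.

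Spots that separated the radiation from the flaxseed arrays were read in the other direction, in the combined and untreated arrays. They were called in a limma fit of the 10 radiation and flaxseed arrays alone, added after the data were seen, so that the spread of the arrays read did not choose them. With radiation 398 spots were higher (4.15%) and 227 lower (2.36%) than with flaxseed. Of the 398, 308 (77.4%) had a higher mean with both treatments than untreated, at a median log2 change of 0.19, and of the 227, 43 (18.9%) did, at a median of -0.2. Over all spots 51.6% were higher, at a median of 0.01. Among the brightest 1920 spots, which hold 238 of the 398 and 159 of the 227, 51.3% were higher, against 77.7% of those 238 and 18.2% of those 159. In the fit of all 20 arrays, which called 395 higher (4.11%) and 256 lower, the shares were 79.7% and 19.9%.

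By array, the mean of the 398 minus the mean of the 227 was 0.33, 0.07, 0.38, 0.46 and 0.29 with both treatments (log2, replicates 1 to 5). In untreated arrays it was -0.06, -0.5, -0.42, -0.0032 and -0.34. The groups did not overlap. Combined replicate 2 lay nearest to untreated, while untreated replicates 1 and 4 lay nearest to the combined group. Of the 227 spots, 31 are among the 35 that were over 2-fold lower. The place of combined replicate 2 is therefore in part the same observation as in those 35, and values without the 31 were not taken. The means were 0.31 ± 0.15 and -0.26 ± 0.22 (SD, n = 5). Flaxseed arrays stood at -1.15 ± 0.09 and radiation arrays at 0.52 ± 0.15, values that the choice of the spots fixed.

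**Figure D4:**
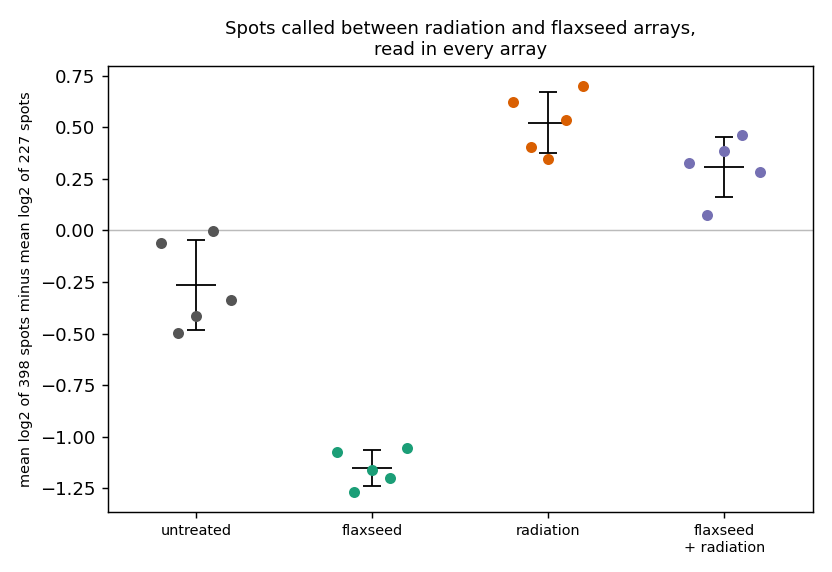
Mean log2 intensity of the 398 spots called higher minus that of the 227 called lower with radiation than with flaxseed, in every array, with black bars for mean and SD (n = 5 per group). Arrays with both treatments range from 0.07 to 0.46 and untreated arrays from -0.5 to -0.0032; the flaxseed and radiation arrays chose the spots, so their distance is built in.

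The spread of the change differed with brightness. Spots were ranked by mean intensity into 5 classes of 1920. In the dimmest class, at a median signal of 1.62 times background, the SD of the log2 change was 0.0812 and 58 spots (3.02%) had an unadjusted p under 0.05. The shares were 6.09%, 6.98% and 9.11% in the next classes. In the brightest class the SD was 0.351, 244 spots (12.7%) had an unadjusted p under 0.05, 126 higher and 118 lower, and 88.7% of intervals lay within a 2-fold change. An offset pulls log2 differences at low signal towards 0; what it contributed to these shares was not tested.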

How the data were processed

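RNA of 20 mouse lungs was measured on MA10 arrays with a radioactively labelled target, in 1 channel, per the labels' protocols. The labels do not name the scanner or image software. Per the file headers, the authors deposited a signal median and a local background median per spot, as linear intensity without normalization. Their deposited table of intensity values holds signal minus background over the array's median for 95.9% to 97.7% of values (relative tolerance 0.001) in 18 of 20 columns; those of radiation replicates 4 and 5 are exchanged within their group. It was used as an alternative only.

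Groups came from the treatment labels, and replicates were numbered in label order within groups. Labels name separate mice. Background was corrected by normexp (offset 50), arrays were quantile normalized, and log2 values of all 4 groups were fitted in limma 3.58.1 (R 4.3.3; 16 residual and 2.76 prior degrees of freedom). Limma p-values are two-sided, with Benjamini-Hochberg adjustment over 9600 spots and a threshold of 0.05. Distances are mean squared differences of group means over spots, less the part expected from spread within groups, with exact permutation of arrays. The test of the distance from untreated is one-sided and the tests of differences between distances are two-sided. Their p-values are adjusted by Benjamini-Hochberg over the 3 distance tests. The limma calls after quantile normalization and the distance tests were tried on simulated data with planted changes. Background correction and the other steps were not. The precision was limited by 5 arrays per group. Print and hybridisation batches are not named in the labels or headers.

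The named spots are the 2 largest changes in each direction among those that passed, filled by the smallest p. The comparison, spots and rules were chosen with earlier results of these data known. No sequence or gene name was paired with spots in the tables used here.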

Additional observations from a re-analysis of the deposited data

Results flagged for a closer look

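In combined replicate 1, rows of the spot numbering explained 19.7% of the variance of the deviations from the mean of all arrays, against 2.03% to 5.26% in the other 4 arrays of the group, a lone value far from the rest. Of 32 sets of 5 arrays examined this way 1 had such a value, where chance gives about 1.6. The difference between the distances of the combined group and of flaxseed alone from untreated was -0.01995 as a mean square. It was singled out because the exact permutation test of the difference itself passed with all arrays (p = 0.00794, adjusted 0.0238). That test held the untreated arrays fixed.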

How the results depend on the processing

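The spots that passed numbered 9 with median scaling (3 higher, 6 lower), 7 each under cyclic loess (1 and 6) and from the authors' table (3 and 4), 34 without background correction (3 and 31), 8 with background subtraction (2 and 6), 30 with an offset of 10 (4 and 26), 28 without the dimmest 33.3% of spots (3 and 25), 26 with trend and robust options (4 and 22), 5 with array weights (1 and 4), 0 in the fit of the 10 arrays alone and 20 at a threshold of 0.1 (4 and 16), against 3 (1 and 2). With position means removed there were 2, both lower. Leaving out each array in turn gave 0 to 27. The share of spots whose interval lay within 2-fold was 69.75% with the authors' table, 95.02% without background correction, 73.1% with subtraction, 95% with an offset of 10, 96.6% without the dimmest spots and 97.9% with position removed, and 96.01% to 97.4% with arrays left out. Spots over 2-fold lower numbered 331 with the authors' table and 98 with subtraction, and those over 2-fold higher 304 and 55, 1 with median scaling, 3 without background correction, 2 with an offset of 10 or array weights, and 0 to 3 with arrays left out; both counts and their alternatives were added after the data were seen. The mean square difference from untreated was 0.0248 with the authors' table, where it did not pass, and 0.011 to 0.0214 with arrays left out. Its difference from that of flaxseed ran from -0.0283 to -0.0109 with arrays left out; it passed under all 8 other settings, at -0.0578 with the authors' table, -0.0352 with subtraction and -0.0298 to -0.018 under the rest. The difference from radiation passed nowhere. It was -0.0296 with the authors' table and -0.00536 with subtraction, ran from -0.00465 to 0.00145 with arrays left out, and turned to 8.78e-06 without radiation replicate 1 and to 0.00145 without combined replicate 2. The causes were not tested. The direction of each of the 4 named spots held in every fit. No scaling moved the median change of all spots by over 0.1, but each sets the arrays to a common level, so it could hardly have moved. No paired analysis was possible because the labels give the mice separate numbers and pair none across groups. A batch as a block was not run, since neither labels nor headers give one. Signals near background limit what dim spots can show.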
